A study of Mus musculus with 4 samples.

Results

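The cells described here are mature neutrophils of mouse prostate tumours, set apart by transcripts of Mmp9, Retnlg and Cxcr2. They were taken from single-cell RNA sequencing libraries of whole prostate tumours of 4 mice (10x Genomics 3′ chemistry, which counts unique molecular identifiers, UMIs, from the 3′ end of each transcript). The 2 PCSp mice carried PB-Cre, Chd1L/L and SpopF133V with the mTmG reporter, and the 2 PSp mice carried PB-Cre and SpopF133V with the mTmG reporter. All 4 mice shared 1 further allele that is not reported here. PB-Cre is driven by the probasin promoter in prostate epithelium, so the alleles are altered in the tumour epithelium, and neutrophils are not a target of this Cre. Castration took place at age 9 months in all 4 mice, with collection 1 month afterwards. No intact mouse and no Spop wild-type mouse enters any comparison. The comparison asks what differs in these neutrophils when the tumour lacks Chd1.

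Barcodes were filtered to at least 500 UMIs, at least 300 genes and at most 20% mitochondrially encoded UMIs. A member had at least 3 of the 6 genes S100a8, S100a9, Csf3r, Il1r2, G0s2 and Clec4d detected and at least 2 UMIs of Mmp9, Retnlg and Cxcr2 together. It also had less than 0.5% of UMIs from Rsad2, Ifit2, Cxcl10, Cmpk2 and Slfn4, at most 2 UMIs of Krt8 and Krt18 and at most 1 UMI of C1qa and C1qb. These values were themselves measured, so everything they fix is given as a description. The rule found 2237 members among 28364 filtered barcodes of 33061 deposited ones, with 471 and 929 members in PCSp mice 1 and 2, against 361 and 476 in PSp mice 1 and 2. The filtered barcodes that met the neutrophil, keratin and C1q limits but not the rest were kept for comparison as 2 further kinds. The interferon-high kind (1369 cells) had 0.5% or more of its UMIs in the 5 interferon genes, and the marker-low kind (1519 cells) had at most 1 UMI of Mmp9, Retnlg and Cxcr2 and less than 0.5% interferon UMIs.

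Neutrophils are short-lived granulocytes that mature in the marrow, where they make their granule proteins in a fixed order: myeloperoxidase and elastase early, lactoferrin and cathelicidin next, gelatinase (Mmp9) late. Cxcr2, the receptor for the chemokines Cxcl1 and Cxcl2, draws mature cells into blood and tissue, Csf3r binds granulocyte colony-stimulating factor, and Retnlg encodes a resistin-like secreted protein abundant in mouse neutrophils. S100a8 and S100a9 form calprotectin, the most abundant protein of the neutrophil cytosol. In tissue, neutrophils switch on interleukin 1 and chemokine genes.

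The promoters of genes that mark these cells, and of Prok2, which does not mark them, are shown. Transcription factors of the C/EBP family are known to drive late granulocyte genes, and Cebpb was among the most abundant transcripts of the members. Each line holds the 250 bases before the RefSeq start site (GRCm38.p6), 5′ to 3′ on the strand of the gene. Capitals mark matches of the letters TTNNGNAA on either strand, a loose C/EBP-type pattern. Retnlg had 1 match (its first base at -246, counted back from the start site), S100a8 had 1 (at -117), S100a9 had 2 (at -236 and -130) and Prok2, a gene that was lower in PCSp members, had 1 (at -211). No match to these letters was found in the same window of Cxcr2, of Csf3r or of Itpr2, another gene that was lower in PCSp members. Of the 32851 mouse promoters of this table, 36.8% held at least 1 match in 250 bases, so a match is common and describes the letters only. S100a8 and S100a9 lie side by side on chromosome 3.
Retnlg, chr16:48872358-48872607, plus strand: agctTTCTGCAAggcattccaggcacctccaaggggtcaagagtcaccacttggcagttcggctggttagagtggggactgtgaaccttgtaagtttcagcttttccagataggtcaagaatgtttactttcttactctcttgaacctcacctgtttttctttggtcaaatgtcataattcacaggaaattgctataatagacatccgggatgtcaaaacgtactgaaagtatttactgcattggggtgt
S100a8, chr3:90668821-90669070, plus strand: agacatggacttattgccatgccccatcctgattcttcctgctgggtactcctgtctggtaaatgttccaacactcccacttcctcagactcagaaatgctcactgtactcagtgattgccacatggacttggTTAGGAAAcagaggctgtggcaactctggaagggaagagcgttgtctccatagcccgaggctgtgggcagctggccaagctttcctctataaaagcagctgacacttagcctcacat
S100a9, chr3:90695722-90695971, minus strand: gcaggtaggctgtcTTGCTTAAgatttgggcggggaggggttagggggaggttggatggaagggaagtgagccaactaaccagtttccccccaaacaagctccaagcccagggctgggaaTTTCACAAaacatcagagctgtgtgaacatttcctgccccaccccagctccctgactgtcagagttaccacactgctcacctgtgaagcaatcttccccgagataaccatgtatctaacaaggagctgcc
Prok2, chr6:99726393-99726642, minus strand: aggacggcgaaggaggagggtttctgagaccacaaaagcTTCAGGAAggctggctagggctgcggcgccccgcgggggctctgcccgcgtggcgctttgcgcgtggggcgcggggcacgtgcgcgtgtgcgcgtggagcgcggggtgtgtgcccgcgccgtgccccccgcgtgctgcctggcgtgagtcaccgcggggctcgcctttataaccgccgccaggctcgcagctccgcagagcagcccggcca

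The libraries held 6539 to 9656 barcodes and 66874620 to 90839725 UMIs. Members had a median of 2371 and 1664 UMIs in the PCSp mice and 2692 and 2476 in the PSp mice, so PCSp mouse 2 had the shallowest members. Summed over members, each mouse gave 1218971 and 1636216 UMIs in PCSp and 1000912 and 1243724 UMIs in PSp. A gene's level is given as CPM, its count scaled to the same total in every sum, which for 3′ tags does not grow with transcript length. Between 3 and 4 members per library carried a barcode sequence that also occurred among the filtered cells of another library. Every value per mouse is 1 library, and with 2 mice per genotype the smallest p that an exact permutation test over mice can give is 0.333. Of the 6868 genes tested in members, 17.7% were higher and 22.1% lower in both PCSp mice than in both PSp mice. That order alone, given for single genes below, is therefore common.

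Mature neutrophils made up 5.71% (95% exact binomial interval 5.22 to 6.23%) and 10.99% (10.3 to 11.7%) of filtered cells in the PCSp mice, against 6.63% (5.98 to 7.32%) and 7.67% (7.02 to 8.36%) in the PSp mice. The intervals cover counting error only. PCSp mouse 2 was the highest and PCSp mouse 1 the lowest of the 4, so the genotypes overlapped. The means were 8.35 ± 3.73% in PCSp and 7.15 ± 0.736% in PSp (SD, n = 2 each), with a log2 ratio of 0.22 and an exact two-sided permutation p of 1. Without PCSp mouse 2 the log2 ratio turned to -0.32. Within the gated neutrophils the mature share was 41.6% and 46.7% in the PCSp mice, against 41.8% and 41.7% in the PSp mice (log2 ratio 0.081, exact two-sided permutation p = 1), so the lowest 3 mice lay between 41.6 and 41.8%. This ratio was -0.0069 when members needed 3 UMIs of the marker genes, 0.19 with at least 1 UMI and 0.25 with every cell thinned to 500 UMIs. The members of PCSp mouse 2 were the shallowest, and the part of depth in its share was not tested. The interferon-high kind was 26.9 and 18.6% of gated neutrophils in the PCSp mice, and 32.6 and 36.2% in the PSp mice. The marker-low kind was 31.5 and 34.7% of gated neutrophils in the PCSp mice, and 25.6 and 22.1% in the PSp mice. Cells lost in dissociation cannot be told apart from cells that were absent.

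**Figure D1:**
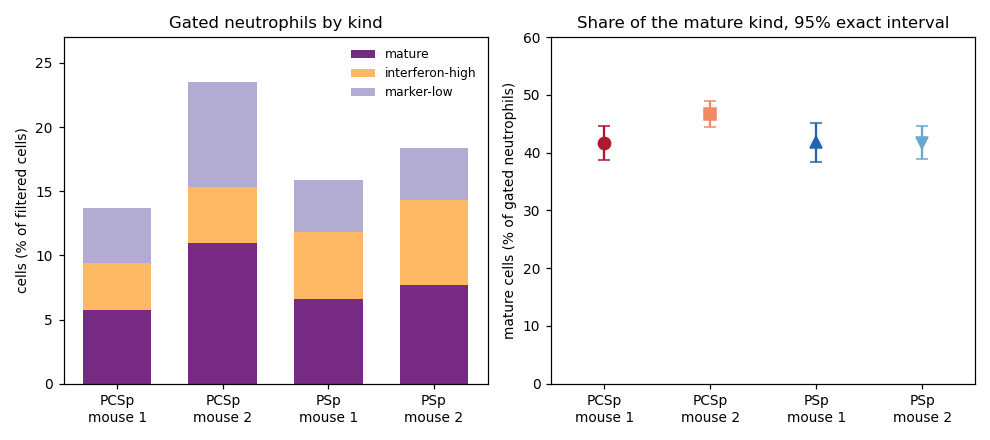
Left, share of filtered cells (%) in each of 4 mice that were mature, interferon-high or marker-low gated neutrophils, stacked. Right, share of gated neutrophils (%) that were mature, with 95% exact binomial intervals as bars. PCSp mouse 2 stands highest in both panels, and PCSp mouse 1 lies with the PSp mice in the right panel.

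The rule genes were read as levels without a test. S100a8 stood at 14650.1 and 19991 CPM in the PCSp mice, against 16753 and 15460 CPM in the PSp mice. S100a9 stood at 13363 and 22386 CPM in the PCSp mice, against 18044 and 14493 CPM in the PSp mice. PCSp mouse 2 was the highest of the 4 for both, and the other 3 mice did not sort by genotype. The interleukin 1 decoy receptor gene Il1r2 had 1609 and 1667 CPM in the PCSp mice, against 1698 and 1917 CPM in the PSp mice. Csf3r, the growth factor receptor, had 1377 and 1422 CPM in the PCSp mice, against 1740.4 and 1769.7 CPM in the PSp mice, lower in both PCSp mice. G0s2, a lipase inhibitor gene, had 2679 and 4261 CPM in the PCSp mice, against 2151 and 2374 CPM in the PSp mice. G0s2 was higher in both PCSp mice. The lectin gene Clec4d had 1408 and 2181.9 CPM in the PCSp mice, against 1666 and 1451 CPM in the PSp mice. Clec4d was highest in PCSp mouse 2. Among the genes that give the cells their name, Mmp9 had 819.5 and 881 CPM in the PCSp mice, against 870.2 and 799 CPM in the PSp mice. Cxcr2 had 755 and 1088 CPM in the PCSp mice, against 907 and 851 CPM in the PSp mice. Retnlg had 549.6 and 1047 CPM in the PCSp mice, against 797 and 550.0 CPM in the PSp mice. Mmp9 varied least between mice, while Retnlg and Cxcr2 were highest in PCSp mouse 2.

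Most members did not have a UMI of all 3 genes, and with few UMIs of them per member, a gene without a UMI may still be expressed. All 3 had a UMI in 14.9 and 17.1% of members in the PCSp mice, and 25.5 and 19.3% in the PSp mice. Mmp9 and Cxcr2 without Retnlg was the commonest combination, in 39.5 and 33.8% of members in the PCSp mice, and 34.1 and 38.7% in the PSp mice. Retnlg was detected in 35.2 and 37.6% of members in the PCSp mice, and 41.3 and 38.03% in the PSp mice. With every cell thinned to 500 UMIs, Retnlg was detected in 16.6 and 23.6% of members in the PCSp mice, and 24.7 and 15.97% in the PSp mice. The background was 0 to 0.0780% of thinned keratin-gated cells, epithelial cells whose median depth before thinning was 9874 to 14918 UMIs. Mmp9 was in 33.97 and 32.9% of thinned members in the PCSp mice, and 32.1 and 29.4% in the PSp mice. Cxcr2 was in 30.8 and 43.1% of thinned members in the PCSp mice, and 39.1 and 35.5% in the PSp mice. Neither passed 0.1% of keratin-gated cells. The members just inside the limit, with exactly 2 UMIs of the 3 genes, were 86 and 234 in the PCSp mice and 50 and 96 in the PSp mice. Just outside it, 121 and 278 marker-low cells in the PCSp mice and 66 and 93 in the PSp mice had 1 UMI. PCSp mouse 2, the shallowest, had the largest share of members at the limit, 25.2%. The median member held 4 UMIs of the 3 genes in both PCSp mice, against 6 and 5 in the PSp mice.

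Of 19 neutrophil genes that the rule did not use, 16 and 18 had a UMI in members of the PCSp mice and 19 in each PSp mouse. Keratin-gated cells had 19 and 18 of them in the PCSp mice and 17 and 19 in the PSp mice. Detection in a sum therefore does not set members apart. The summed level of the 19 genes in members was 23134 and 29095 CPM in PCSp and 28844 and 24952 CPM in PSp. In keratin-gated cells it was 1611 and 2156 CPM in PCSp and 1912 and 1563 CPM in PSp. Marker-low cells had 13159 and 20162 CPM in PCSp and 14133 and 16204 CPM in PSp. Interferon-high cells had more than members in every mouse, 28538 and 32979 CPM in PCSp and 31614 and 31468 CPM in PSp. The sum was thus not particular to the mature kind. Keratin-gated cells had fewer than 3 of the 6 neutrophil rule genes by definition, so their lower sum was partly set by the gate. Il1b, with levels given below, was the largest part of the members' sum. Camp, Ngp, Cd177, Ceacam10 and Ly6g were each in at most 0.969% of thinned members. The members were chosen on genes that move with the 19 genes, so these values are a description and no test. Hdc, the histamine-forming enzyme, had 1699.8 and 2222 CPM in the PCSp mice, against 1903 and 2214 CPM in the PSp mice. Msrb1 had 2098 and 2085 CPM in the PCSp mice, against 2229 and 2317 CPM in the PSp mice. The genotypes overlapped for Hdc, and Msrb1 was lower in both PCSp mice. The Myc antagonist gene Mxd1 had 1587 and 2006 CPM in the PCSp mice, against 1798 and 1646 CPM in the PSp mice. Trem1, an amplifier of inflammatory signalling, had 934 and 1175 CPM in the PCSp mice, against 1096 and 869 CPM in the PSp mice. Ly6g, the surface marker by which mouse neutrophils are commonly sorted, was near the limit of detection at 0 and 3.06 CPM in PCSp and 5.99 and 2.41 CPM in PSp.

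Granule genes were read in the order in which neutrophils make them. Of 9 primary granule genes, Elane and Ctsg had no UMI in any member, and Mpo, Prtn3, Ms4a3 and Bpi stayed at or below 1.998 CPM in every mouse. A count of 0 over both PCSp mice allows up to 3 UMIs, or 1.05 CPM. Cd63, Ctsc and Srgn were the 3 of that list with enough UMIs to be tested. Srgn, a proteoglycan core gene, had 7521 and 10037 CPM in the PCSp mice, against 8290.4 and 6839 CPM in the PSp mice. The secondary granule genes Camp and Ngp had at most 2.41 CPM. Ltf, lactoferrin, had 47.6 and 62.3 CPM in the PCSp mice, against 39.96 and 48.2 CPM in the PSp mice. It was detected in more of the thinned keratin-gated cells (5.17 to 9.96%) than of thinned members (1.39 to 3.55%). Lcn2, a siderophore-binding protein, had 211 and 335 CPM in the PCSp mice, against 215 and 166 CPM in the PSp mice. Lcn2 too was detected in more of the thinned keratin-gated cells (22.5 to 28.7%) than of thinned members (6.30 to 14.0%). Mmp8, neutrophil collagenase, had 39.4 and 95.95 CPM in the PCSp mice, against 47.96 and 26.5 CPM in the PSp mice. For Lcn2 and Mmp8, PCSp mouse 2 was the highest. Itgam, a chain of the integrin Mac-1, had 418 and 580.0 CPM in PCSp and 543 and 469 CPM in PSp. Its partner chain Itgb2 had 250.2 and 248.7 CPM in PCSp and 268 and 273 CPM in PSp. The genotypes overlapped for Itgam, and Itgb2 was lower in both PCSp mice. All 6 NADPH oxidase genes had enough UMIs to be tested. Cyba, its membrane subunit, had 1192 and 1016 CPM in PCSp and 982 and 946 CPM in PSp. Ncf1, a cytosolic subunit, had 886 and 797 CPM in PCSp and 710.4 and 851 CPM in PSp. Cyba was higher in both PCSp mice, and the genotypes overlapped for Ncf1.

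The secreted factors Cxcl2 and Il1b were among the 20 genes of highest mean level in members. Cxcl2, a ligand of Cxcr2, had 14997 and 20869 CPM in the PCSp mice, against 21148 and 13862 CPM in the PSp mice. Il1b, interleukin 1 beta, had 11123 and 13544 CPM in the PCSp mice, against 13084 and 11773 CPM in the PSp mice. Ccl4, a chemokine, had 4021 and 4163 CPM in PCSp and 3907 and 3321 CPM in PSp. Ccl3, of the same family, had 2983 and 2281 CPM in PCSp and 3868 and 2489 CPM in PSp. The genotypes overlapped for Cxcl2, Il1b and Ccl3, and both PCSp mice lay above both PSp mice for Ccl4. Cell by cell the median member gave 1.04 and 1.27% of its UMIs to Il1b in the PCSp mice and 1.14 and 1.09% in the PSp mice, with a 90th percentile of 2.28 to 2.56%. Ccl4 was instead concentrated: the median member had none in every mouse and the 90th percentile was 1.07 to 1.30% of UMIs. The interleukin 1 antagonist gene Il1rn had 1632 and 1757 CPM in PCSp and 1835 and 1344 CPM in PSp. Tnf had 648 and 350.2 CPM in PCSp and 423 and 308 CPM in PSp. Osm, oncostatin M, had 404 and 493 CPM in PCSp and 548 and 441 CPM in PSp. The genotypes overlapped for Il1rn, Tnf and Osm. Among receptors, Ccrl2, an atypical chemerin receptor, had 4091 and 2948 CPM in the PCSp mice, against 4313 and 4259.8 CPM in the PSp mice. The niacin receptor gene Hcar2 had 1319 and 1551 CPM in the PCSp mice, against 2638 and 1561 CPM in the PSp mice, with PSp mouse 1 high. Cxcr4, which retains aged neutrophils in marrow, had 543 and 419 CPM in the PCSp mice, against 679 and 536 CPM in the PSp mice. The leukotriene B4 receptor gene Ltb4r1 had 35.3 and 82.5 CPM in PCSp and 48.96 and 45.03 CPM in PSp. The genotypes overlapped for Cxcr4 and Ltb4r1. The other genes among the 20 of highest mean level were Malat1, Fth1, Gm42418, Tmsb4x, Ftl1, Actb, Cebpb, H3f3b, Eif1, Tyrobp, Igkc, Fau, Junb and Tpt1. Fth1, ferritin heavy chain, had 27949 and 37340.4 CPM in the PCSp mice, against 28060.4 and 28895 CPM in the PSp mice.

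**Figure D2:**
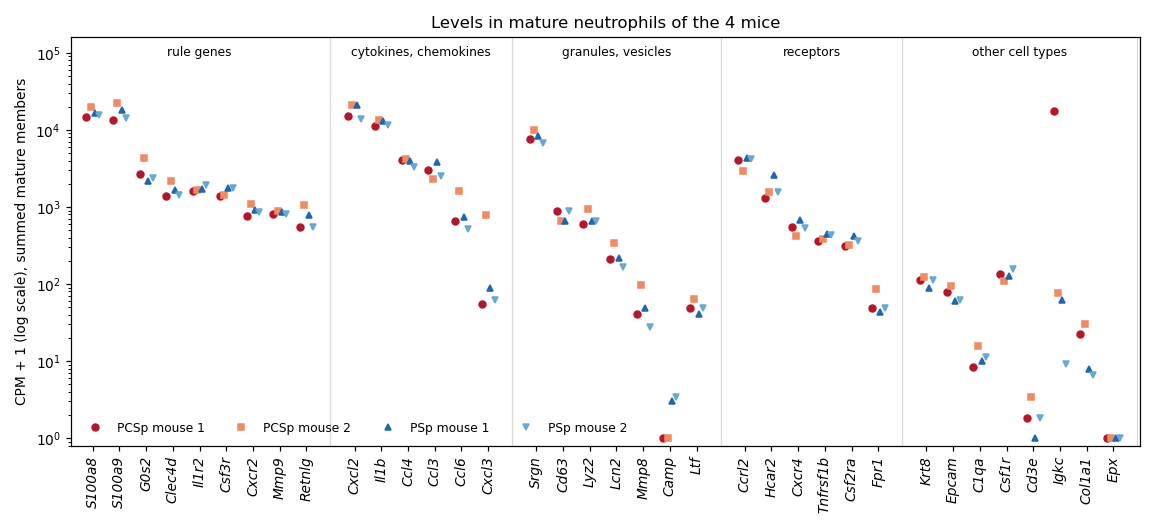
Level in the summed mature members of each of 4 mice (CPM + 1, log scale) of genes of the rule, of secreted factors, granules and receptors, and of markers of other cell types (Krt8 and C1qa were limited by the rule). S100a8, S100a9, Cxcl2 and Il1b lie at 11123 or above in every mouse, Camp and Epx near 1, and Igkc stands at 17874 in PCSp mouse 1 alone.

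Markers of other cell types were present unevenly across mice, and the B and plasma sum of PCSp mouse 1 was as high as that of the 19 neutrophil genes there. The 6 fibroblast markers summed to 1185 and 663 CPM in PCSp and 101 and 424 CPM in PSp. The 5 B and plasma markers summed to 23477 and 123 CPM in PCSp and 149.9 and 62.7 CPM in PSp. In PCSp mouse 1 a pair of barcodes with 8146 and 13484 Igkc UMIs held 99.3% of the Igkc UMIs of its members. Members with 10 or more UMIs of the fibroblast or the B and plasma lists numbered 12 and 7 in the PCSp mice and 2 and 2 in the PSp mice. They held 8.67 and 2.32% of member UMIs in the PCSp mice, and 0.527 and 1.14% in the PSp mice. These are called mixed members below. The epithelial list outside the rule summed to 386 and 400.3 CPM in PCSp and 272 and 312 CPM in PSp, with every gene of it detected in every mouse. The macrophage list outside the rule, with Csf1r and Apoe as its most abundant genes, summed to 635 and 457 CPM in PCSp and 351 and 442 CPM in PSp. The monocyte list gave 31.2 and 52.6 CPM in PCSp and 19.98 and 39.4 CPM in PSp. For T and NK cells the list gave 9.84 and 28.7 CPM in PCSp and 6.99 and 18.5 CPM in PSp. Dendritic markers gave 20.5 and 20.2 CPM in PCSp and 4.995 and 2.41 CPM in PSp. Endothelial markers gave 41.8 and 34.8 CPM in PCSp and 8.99 and 4.02 CPM in PSp. The erythroid list gave 66.4 and 2.44 CPM in PCSp and 0.999 and 3.22 CPM in PSp, with PCSp mouse 1 high. Mast and basophil markers gave 4.92 and 6.11 CPM in PCSp and 2.997 and 2.41 CPM in PSp. Platelet markers gave 3.28 and 5.50 CPM in PCSp and 1.998 and 0.804 CPM in PSp. Of the eosinophil list, Epx was at 0 in every mouse and Prg2 had UMIs in PCSp mouse 1 only. Siglecf, which tumour neutrophils are also known to carry, had 106 and 65.4 CPM in the PCSp mice, against 79.9 and 91.7 CPM in the PSp mice.

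Set beside the marker-low kind of the same mice, the genes that stood highest in members included adhesion and granule genes. The rule used this contrast, so it is a description with no test. Of 2997 genes with at least 50 CPM in either kind 33.8% were higher and 34.5% lower in all 4 mice. By the lowest log2 ratio of the 4 mice, the leading genes outside the rule were Jaml, an adhesion molecule of migrating neutrophils (135 against 21.2 CPM on average), and Mmp8 (52.5 against 9.06 CPM). They were followed by St3gal5 (51.5 against 12.6 CPM), Wfdc21 (188 against 38.2 CPM), the stefin gene Stfa2l1 (172 against 33.8 CPM), Gk (68.3 against 18.3 CPM) and Mcemp1 (287 against 78.8 CPM). Hp, haptoglobin, averaged 326 against 71.9 CPM, and Cfp, properdin, 51.8 against 12.3 CPM. H2-Q10, Hacd4, Dhrs7, Zyx and Emb were also among the 15 highest, with mean log2 ratios of 1.53 to 2.04. Mmp8 and Hp lie on the secondary granule list, whose summed level in members was 655 and 974 CPM in PCSp and 639 and 583 CPM in PSp. In marker-low cells the same sum was 333 and 555 CPM in PCSp and 242 and 224 CPM in PSp.

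The genes that stood lowest in members relative to marker-low cells included lysosomal and integrin genes. Gpnmb, a lysosomal membrane glycoprotein, averaged 40.6 against 384 CPM, with a log2 ratio between -3.42 and -2.93 over the 4 mice. Atp6v0d2, a subunit of the lysosomal proton pump, averaged 12.4 against 84.9 CPM. The integrin genes Itgae and Itgb3 averaged 4.605 against 67.99 CPM and 7.58 against 74.3 CPM. Cxcr1, the other receptor of this chemokine family, averaged 8.93 against 72.8 CPM, the reverse of the direction that the rule fixes for Cxcr2. Gadd45g averaged 166 against 799.6 CPM and Slc26a11 57.5 against 313 CPM. Gstm1 averaged 45.1 against 211 CPM, Slamf7 11.97 against 71.96 CPM and the monocyte chemokine gene Ccl2 14.4 against 79.3 CPM. Gkap1, Adamts1, Ly6c1, Plpp3 and Cipc were the rest of the 15, with mean log2 ratios of -3.30 to -2.33. The fibroblast list summed to 1185 and 663 CPM in PCSp and 101 and 424 CPM in PSp in members. It summed to 4133 and 2479 CPM in PCSp and 2061 and 1121 CPM in PSp in marker-low cells, and its part in these differences was not tested. Prok2, a secreted prokineticin, had 7.38 and 14.1 CPM in PCSp and 56.9 and 119 CPM in PSp in members. In marker-low cells it had 271 and 44.3 CPM in PCSp and 424 and 297 CPM in PSp.

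Against the interferon-high kind, 54.7% of 2758 genes were higher and 20.9% lower in all 4 mice, again with no test since the rule cut on interferon genes. The steepest differences outside the rule were other interferon-stimulated genes: Ifit1 averaged 106 against 3222 CPM and Ifit3 103 against 2548 CPM. The guanylate-binding protein genes Gbp5 and Gbp2 averaged 9.33 against 373 CPM and 41.6 against 927 CPM. Usp18, which restrains interferon signalling, averaged 24.6 against 553 CPM. The 30 listed interferon-stimulated genes outside the rule summed to 4698 and 4021 CPM in PCSp and 5312 and 5213 CPM in PSp in members. In interferon-high cells they summed to 41586 and 39187 CPM in PCSp and 39843 and 40852 CPM in PSp. Among genes higher in members were Emb (251 against 59.9 CPM), Alox5ap, which feeds leukotriene synthesis (993 against 357 CPM), Cdk2ap2 (799.7 against 298 CPM), Trf, transferrin (190.4 against 63.3 CPM), and Iscu, an iron-sulfur cluster scaffold (170.5 against 61.7 CPM). Emb and Dhrs7 were among the 15 highest against both other kinds. The limit of 2 UMIs of Mmp9, Retnlg and Cxcr2 was met by 49.7 and 48.9% of interferon-high cells in the PCSp mice, and 56.03 and 54.5% in the PSp mice.

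**Figure D3:**
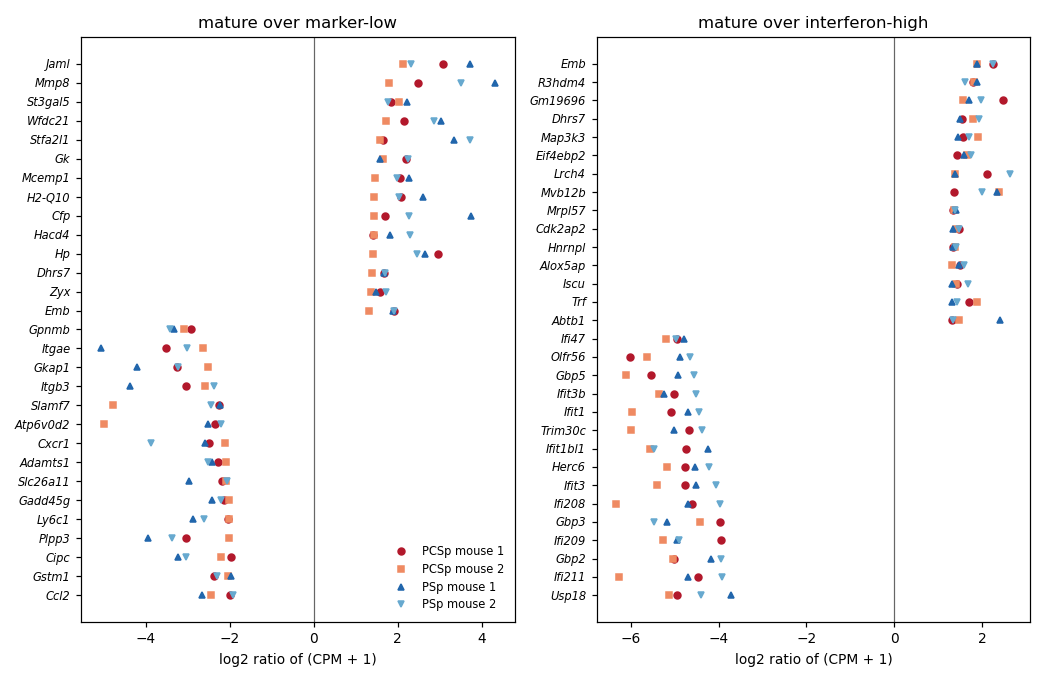
Log2 ratio of (CPM + 1) of mature members over marker-low (left) and over interferon-high (right) neutrophils of the same mouse, for the 15 genes highest and 15 lowest by their least extreme mouse, with rule genes and 1 further gene, not reported here, left out. Each point is 1 mouse; all 4 points of every gene lie on one side of 0, as the choice of the genes requires, and the interferon-stimulated genes at the right reach below -6.

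Members with and without a Retnlg UMI differed in other genes. Their median depth was 2360 and 1726 UMIs with Retnlg and 2375 and 1616.5 without it in the PCSp mice, and 2750 and 2500 with and 2650.5 and 2451 without it in the PSp mice. Members without Retnlg had to reach the limit on Mmp9 and Cxcr2 alone, and the split was chosen after earlier values were seen, so it carries no test. Siglecf stood at 38.8 and 12.6 CPM in the PCSp mice and 16.5 and 42.3 CPM in the PSp mice with Retnlg. Without Retnlg it was at 143 and 99.05 CPM in the PCSp mice and 126 and 122 CPM in the PSp mice, so it was lower with Retnlg in all 4 mice. Ltc4s, leukotriene C4 synthase, was at 20.6 and 3.14 CPM in the PCSp mice and 4.73 and 8.45 CPM in the PSp mice with Retnlg. Without Retnlg it was at 109 and 69.03 CPM in the PCSp mice and 95.2 and 125 CPM in the PSp mice. Havcr2, the checkpoint receptor Tim-3, had log2 ratios, with over without Retnlg, of -2.42 to -1.30 over the 4 mice, Ptgs1, cyclooxygenase 1, -2.96 to -1.65, and the adaptor gene Scimp -5.67 to -3.86. Higher with Retnlg were Stfa2l1 (1.43 to 1.57), Mmp8 (0.93 to 3.01), the chemokine gene Ccl6 (1.03 to 1.37) and the heat shock gene Hspa1b (1.45 to 2.75). Of 2777 genes with at least 50 CPM in either set, 363 were higher and 1031 lower in all 4 mice.

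Between genotypes few genes were called in members, which does not show the other genes to be alike. Of 6868 genes tested with edgeR's quasi-likelihood test on the member sums, 57 (0.83%) were higher and 14 (0.204%) lower in PCSp at a Benjamini-Hochberg adjusted p under 0.05, 1.03% in all. At an unadjusted p under 0.05 there were 725 of the 6868 genes, 431 higher and 294 lower. That is a larger share than the 0.05 that the limit alone would give. DESeq2 called 28 higher and 7 lower. Without mixed members, 29 (0.437%) of 6643 genes were higher and 12 (0.181%) lower, 0.617% in all. Without the barcodes of highest doublet score, 16 (0.246%) of 6498 were higher and 11 (0.169%) lower, 0.416% in all. Of the 57 higher genes, 23 had at least 50% of their PCSp UMIs in the 19 mixed PCSp members and 17 were at least 3 times higher in keratin-gated cells than in members. Of the 57, 10 were called both without mixed members and without the barcodes of highest doublet score. Of the 14 lower genes, 10 were called in both. Leaving out 1 mouse at a time, the fit called 142 to 203 genes, with 1 genotype then resting on a single mouse that is assumed to vary like the others. It called 177 without PCSp mouse 1 and 203 without PCSp mouse 2. It called 142 without PSp mouse 1 and 166 without PSp mouse 2.

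The level of Chd1 in members cannot check the genotype labels. Chd1 was measured in cells that PB-Cre does not target, with 3′ tags that may lie outside the deleted part. It had 136 and 119.8 CPM in the PCSp mice, against 101 and 130.3 CPM in the PSp mice (log2 fold change 0.17 ± 0.18 (SE), adjusted p = 0.840). Spop had 91.9 and 110.01 CPM in the PCSp mice, against 139.9 and 119 CPM in the PSp mice (-0.32 ± 0.20, adjusted p = 0.627). Neither passed the test, and these values bear on neither the deletion in epithelium nor its efficiency.

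Prok2 fell in PCSp members. It stood at 7.38 and 14.1 CPM in the PCSp mice, against 56.9 and 119 CPM in the PSp mice, with both PCSp mice below both PSp mice (log2 fold change -2.95 ± 0.37 (SE), adjusted p = 0.00103). Few members carried it: the 5 members with most Prok2 held 100 and 91.3% of its UMIs in the PCSp mice and 75.4 and 95.9% in the PSp mice. The call was lost with at least 3 UMIs of the marker genes (log2 fold change -1.43, adjusted p = 0.325; 5.92e-24 to 0.325 over all its alternatives). Itpr2, an inositol trisphosphate receptor that releases stored calcium, fell to 215 and 151 CPM in the PCSp mice, against 499 and 406 CPM in the PSp mice (log2 fold change -1.29 ± 0.20 (SE), adjusted p = 0.00634), and was likewise not called at 3 UMIs (-0.80, adjusted p = 0.387; 6.75e-08 to 0.387). Itpr2 was lower in the PCSp mice in the marker-low kind too, at 1097 and 344 CPM in PCSp and 2068 and 1687 CPM in PSp. Gm20406, an antisense RNA gene over Klhdc4, had 28.7 and 25.7 CPM in the PCSp mice, against 98.9 and 63.5 CPM in the PSp mice (log2 fold change -1.54 ± 0.26 (SE), adjusted p = 0.0118). It was not called with at least 3 marker UMIs (adjusted p = 0.0979) or equal cells per mouse (0.157), in a range of 1.54e-07 to 0.157. Klhdc4 on the other strand had 50.04 and 51.3 CPM in PCSp and 80.9 and 107 CPM in PSp. Whether the counting used strand is not given in the sources used here, so the 2 cannot be separated.

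Trim12a and Trim30d, antiviral tripartite-motif genes of a cluster on chromosome 7, and Gbp2 also fell. Trim12a had 65.6 and 58.7 CPM in the PCSp mice, against 146 and 133 CPM in the PSp mice (log2 fold change -1.14 ± 0.18 (SE), adjusted p = 0.00702). Trim12a was also lower in PCSp cells of other kinds, at 14.9 and 13.7 CPM in PCSp and 42.3 and 32.8 CPM in PSp in C1q-gated cells. In keratin-gated cells it had 24.2 and 18.7 CPM in PCSp and 56.5 and 55.6 CPM in PSp. It was not called when each mouse gave the same number of members (-0.98, adjusted p = 0.157; 2.59e-05 to 0.157 over all its alternatives). Trim30d had 63.99 and 73.3 CPM in the PCSp mice, against 145 and 118 CPM in the PSp mice (-0.90 ± 0.20, adjusted p = 0.0480). Gbp2, an interferon-induced GTPase, had 27.9 and 25.1 CPM in the PCSp mice, against 49.95 and 63.5 CPM in the PSp mice (-1.08 ± 0.24, adjusted p = 0.0480). Both lost the call in most alternatives (adjusted p 0.00190 to 0.331 and 0.00399 to 0.588). Eprs, glutamyl-prolyl-tRNA synthetase, had 62.3 and 58.7 CPM in the PCSp mice, against 102 and 153 CPM in the PSp mice (-1.05 ± 0.20, adjusted p = 0.0255). Lin54, a subunit of the DREAM cell cycle repressor, had 23.8 and 20.8 CPM in the PCSp mice, against 56.9 and 55.5 CPM in the PSp mice (-1.31 ± 0.24, adjusted p = 0.0186). Lsmem1 had 14.8 and 16.5 CPM in the PCSp mice, against 54.9 and 41.01 CPM in the PSp mice (-1.56 ± 0.29, adjusted p = 0.0187). Eprs was not called without PSp mouse 2 (adjusted p = 0.132), with DESeq2 (0.157), at least 3 marker UMIs (0.214) or equal cells per mouse (0.204), in a range of 0.000103 to 0.214. Lin54 was not called with DESeq2 (adjusted p = 0.203), at least 3 marker UMIs (0.107) or equal cells per mouse (0.0961), in a range of 0.000243 to 0.203. Lsmem1 was not called with DESeq2 (adjusted p = 0.128) or equal cells per mouse (0.0961), in a range of 4.56e-05 to 0.128. Lsmem1 overlaps the antisense gene Gm17056 (48.4 and 47.7 CPM in PCSp and 113 and 57.9 CPM in PSp). The noncoding gene 2010320O07Rik had no UMI in PCSp members and 84 and 24 UMIs in the PSp mice, all of them in 2 members of PSp mouse 1 and 1 member of PSp mouse 2. Its ratio over a floor of 3 counts in both PCSp mice was 45.8. With all UMIs in so few members, this ratio is no bound on the difference.

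A noncoding gene spread over many members rose in PCSp. Gm26740, annotated as antisense at chr10:22187013-22302835 (GRCm38, minus strand), had 217 and 244 CPM in the PCSp mice, against 2.997 and 0 CPM in the PSp mice. It had 663 UMIs in PCSp members, in 157 and 291 cells of mice 1 and 2, against 3 UMIs in 3 members of PSp mouse 1 and none in PSp mouse 2. The ratio was 174 (95% exact interval 59.2 to 845, counting error only). Its adjusted p was 6.99e-07, and 4.09e-78 to 8.29e-05 over its alternatives. The same side was seen in other cells: interferon-high cells had 88.2 and 107 CPM in PCSp and 1.22 and 1.81 CPM in PSp. Marker-low cells had 68.9 and 139 CPM in PCSp and 1.47 and 4.33 CPM in PSp, and C1q-gated cells had 21.1 and 24.2 CPM in PCSp and 0.436 and 0.468 CPM in PSp. Keratin-gated cells had below 1 CPM in every mouse. Gm42031, a long noncoding RNA gene, had 59.1 and 65.4 CPM in the PCSp mice, against 2.997 and 2.41 CPM in the PSp mice (log2 fold change 4.53 ± 0.37 (SE), adjusted p = 3.51e-05). In keratin-gated cells it had 228 and 146 CPM in PCSp and 28.9 and 26.7 CPM in PSp, with the genotypes in the same order. The part of free epithelial RNA in the members' value of Gm42031 was not tested. Reg3b, an antimicrobial lectin, had 99.3 and 341 CPM in the PCSp mice, against 44.96 and 31.4 CPM in the PSp mice (2.61 ± 0.46, adjusted p = 0.0146). It was not called with DESeq2 (adjusted p = 0.409) or with equal cells per mouse (0.0961), in a range of 2.04e-39 to 0.409. Keratin-gated cells had 1711 and 3400.2 CPM in PCSp and 727 and 589.5 CPM in PSp, with the genotypes in the same order, and the part of free epithelial RNA in the members' value was not tested.

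The other named genes that were higher in PCSp are known mainly from stroma, vessels, fat and plasma cells. Igkc had 17874 and 75.8 CPM in the PCSp mice, against 60.9 and 8.04 CPM in the PSp mice (log2 fold change 8.03 ± 1.65 (SE), adjusted p = 0.0332), with the pair of barcodes in PCSp mouse 1 described above. It was not called without the highest doublet scores (1.68, adjusted p = 0.176; 3.39e-268 to 0.188 over all its alternatives), and without PCSp mouse 1 it was called at 1.29. Fabp4, a fatty acid carrier of fat cells, vessels and macrophages, had 364 and 38.5 CPM in the PCSp mice, against 7.99 and 3.22 CPM in the PSp mice (5.17 ± 0.93, adjusted p = 0.0154). For Fabp4, 5 members held 97.1% of its UMIs in PCSp mouse 1, and without that mouse it was called at 2.90. It was not called with DESeq2 (adjusted p = 0.0826), without the highest doublet scores (0.108) or with equal cells per mouse (0.0634), in a range of 5.54e-79 to 0.108. Sparc, a matrix glycoprotein, had 62.3 and 89.8 CPM in the PCSp mice, against 6.99 and 12.9 CPM in the PSp mice (2.94 ± 0.33, adjusted p = 0.000571), with 48.7 and 34.01% of its PCSp UMIs in mixed members. Sparcl1, a relative of Sparc, had 86.1 and 38.5 CPM in the PCSp mice, against 4.995 and 12.9 CPM in the PSp mice. Bgn, biglycan, had 63.99 and 70.9 CPM in the PCSp mice, against 10.99 and 10.45 CPM in the PSp mice. Sparcl1 and Bgn were higher in both PCSp mice. Sfrp1, a secreted Wnt antagonist, had 34.5 and 51.3 CPM in the PCSp mice, against 4.995 and 3.22 CPM in the PSp mice. Igfbp4, an insulin-like growth factor binding protein, had 141 and 86.2 CPM in the PCSp mice, against 18.98 and 27.3 CPM in the PSp mice. For Sparcl1, Bgn, Sfrp1 and Igfbp4 the adjusted p was 0.00634, 0.000404, 0.00103 and 0.000710. In the same order, mixed members held 76.2 and 36.5%, 80.8 and 50%, 71.4 and 65.5% and 67.4 and 53.2% of the UMIs of PCSp mice 1 and 2. Bgn and Sfrp1 lost the call without mixed members (adjusted p = 0.191 and 0.148, in ranges of 3.47e-15 to 0.191 and 1.12e-13 to 0.148). The fibroblast list itself had 4 of 6 tested genes called higher (median log2 fold change 2.47, against -0.0065 over all genes tested, of which 0.83% were called higher). Without the barcodes of highest doublet score 3 of 5 were called (median 2.35). Mixed members are defined in part by these same UMIs, and without them 2 of the 6 genes had enough UMIs to be tested, with none called and a median of 1.60.

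**Figure D4:**
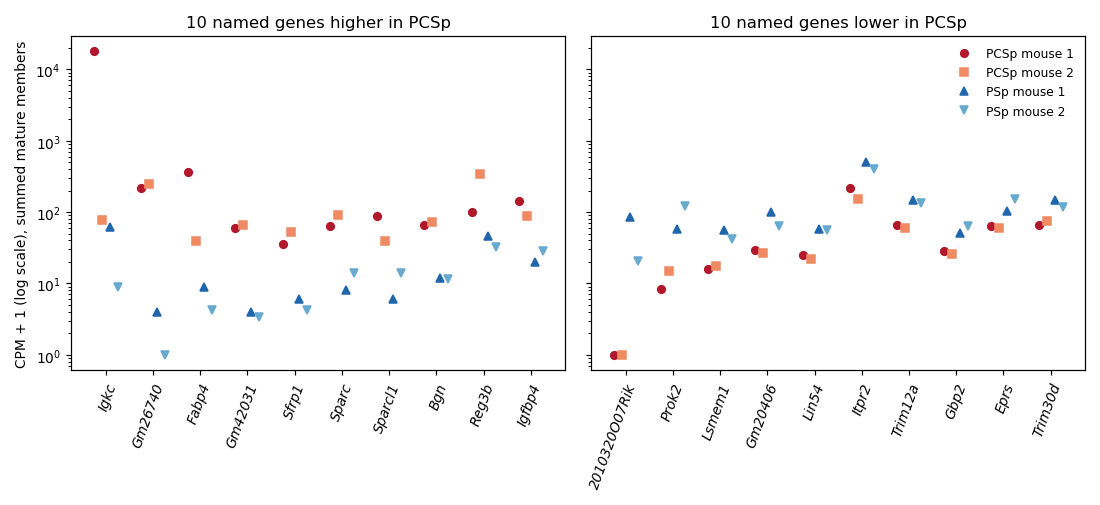
Level in the summed mature members of each mouse (CPM + 1, log scale) of the 10 named genes higher and the 10 lower in PCSp. Both PCSp mice lie on one side of both PSp mice for every gene, as the naming rule requires, and for Igkc and Fabp4 PCSp mouse 1 lies highest.

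Of 7 listed antigen presentation genes of class II, which load peptides for helper T cells, 4 were tested and 3 were called higher in PCSp members (0.83% over all genes tested), and none was called without the barcodes of highest doublet score. The median log2 fold change of the 4 was 1.64, and without PCSp mouse 1 it was 1.08. Dendritic cells carry these genes at high levels, and the dendritic list summed to 20.5 and 20.2 CPM in PCSp and 4.995 and 2.41 CPM in PSp. In every mouse 5 or fewer members held 100% of those UMIs, and 1 member of each PCSp mouse and 0 of each PSp mouse had 10 or more. The part of these cells in the class II values was not tested. Cd74, the invariant chain, had 444 and 273 CPM in the PCSp mice, against 92.9 and 85.2 CPM in the PSp mice (log2 fold change 2.02 ± 0.22 (SE), adjusted p = 0.000571). H2-Ab1 had 118 and 44.00 CPM in the PCSp mice, against 26.98 and 16.9 CPM in the PSp mice (1.89 ± 0.40, adjusted p = 0.0378). H2-Eb1 had 141 and 84.3 CPM in the PCSp mice, against 45.96 and 40.2 CPM in the PSp mice (1.40 ± 0.24, adjusted p = 0.0129). Without mixed members all 4 tested genes were called. Without the barcodes of highest doublet score the median was 0.16, with 3 genes positive and 1 negative, and Cd74 stood at 0.39 (adjusted p = 0.568; 2.68e-22 to 0.568 over its alternatives). Leaving those barcodes out took 23 and 36 members of the PCSp mice and 8 and 10 of the PSp mice. Of 11 class I genes tested, none was called, 10 had a negative log2 fold change, against 50.9% of all genes tested, and the median was -0.18. Without PCSp mouse 2 it was -0.0014 with 6 of 11 negative, and without PCSp mouse 1 it was -0.45. With equal cells per mouse 6 of 11 were negative (median -0.11), and with at least 3 marker UMIs the median was -0.078. B2m, the shared light chain, had 1514 and 1076 CPM in PCSp and 1761 and 1516 CPM in PSp. The peptide transporter genes had 51.7 and 28.7 CPM in PCSp and 59.9 and 59.5 CPM in PSp (Tap1) and 68.9 and 38.5 CPM in PCSp and 81.9 and 69.1 CPM in PSp (Tap2).

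Interferon-stimulated genes mostly had negative log2 fold changes, and 1 passed the test. Of 30 tested outside the rule, 25 had a negative value, against 50.9% of all genes tested. In 20, each PCSp mouse was below each PSp mouse, against 22.1% of all genes, and in 1 each was above, against 17.7%. The median was -0.47, between -0.53 and -0.28 over the 12 alternatives that kept a filter on low counts, and -0.28 with at least 3 marker UMIs. The called gene was Gbp2. Members were chosen for less than 0.5% of UMIs in 5 interferon genes, which move with these, and marker-low cells met the same limit. Members with 0.25 to 0.5% of UMIs in those 5 genes were 10.2 and 6.57% in the PCSp mice, and 11.9 and 12.6% in the PSp mice. The genotypes were thus not equally close to the limit, and its part in these differences was not tested. Ifit1 had 93.5 and 44.6 CPM in the PCSp mice, against 126 and 158 CPM in the PSp mice (log2 fold change -1.05 ± 0.25 (SE), adjusted p = 0.0729). Ifi204, a DNA sensor, had 97.6 and 95.95 CPM in the PCSp mice, against 143 and 212 CPM in the PSp mice (-0.85 ± 0.20, adjusted p = 0.0621). Oas2, which senses double-stranded RNA, had 18.05 and 17.7 CPM in the PCSp mice, against 44.96 and 30.6 CPM in the PSp mice (-1.03 ± 0.31, adjusted p = 0.169). The summed level of the list was 4698 and 4021 CPM in PCSp and 5312 and 5213 CPM in PSp, with both PCSp mice lower. The order was the same in marker-low cells, at 4457 and 4357 CPM in PCSp and 5230 and 5080 CPM in PSp. It was also the same in keratin-gated cells, at 5156 and 4498 CPM in PCSp and 7546 and 7329 CPM in PSp. In interferon-high cells the genotypes overlapped. The part of free epithelial RNA in the members' sum was not tested. Among the rule's own interferon genes, Rsad2 had 248.6 and 172 CPM in PCSp and 313 and 284 CPM in PSp, given without a test. Slfn4 had 339 and 336 CPM in PCSp and 455 and 421 CPM in PSp.

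Lists of inflammatory and metabolic genes gave small differences. Of 22 hypoxia and glycolysis genes tested, 18 had a negative log2 fold change, against 50.9% of all genes tested, and none was called. Their median was -0.17, between -0.27 and -0.09 over 12 alternatives. Hk2, hexokinase 2, had 136 and 100.2 CPM in the PCSp mice, against 247 and 151 CPM in the PSp mice (log2 fold change -0.74 ± 0.24 (SE), adjusted p = 0.228), and PSp mouse 1 was the highest. Vegfa, the vascular growth factor, had 148 and 155 CPM in the PCSp mice, against 268 and 202 CPM in the PSp mice (-0.60 ± 0.20, adjusted p = 0.237). The lipid droplet gene Hilpda had 216 and 271 CPM in the PCSp mice, against 538 and 272 CPM in the PSp mice (-0.70 ± 0.28, adjusted p = 0.359). The tumour-associated list had 1 of 15 called, Prok2 (0.204% of all genes were called lower), with a median of -0.25. That median was -0.056 without PSp mouse 1, with 8 of 15 negative, -0.15 without PCSp mouse 2, -0.38 without PCSp mouse 1 and -0.41 without PSp mouse 2. Ptgs2, cyclooxygenase 2, which makes prostaglandin E2 precursors, had 1084 and 1074 CPM in the PCSp mice, against 1753 and 1922 CPM in the PSp mice (-0.74 ± 0.20, adjusted p = 0.113). DESeq2 called Ptgs2 (adjusted p = 0.0373, in a range of 0.0134 to 0.492). Xbp1, a factor of the unfolded protein response, had 122 and 174 CPM in the PCSp mice, against 91.9 and 71.6 CPM in the PSp mice (0.91 ± 0.23, adjusted p = 0.0880). Of 17 immediate early and heat shock genes, 12 had a negative log2 fold change (median -0.26), against 50.9% of all genes tested, and none was called. Hspa1b had 68.1 and 39.1 CPM in the PCSp mice, against 81.9 and 101 CPM in the PSp mice (-0.78 ± 0.23, adjusted p = 0.169). Among 18 transcription factors, 13 were negative, against 50.9% of all genes tested, and none called. Junb had 3310.2 and 3418 CPM in the PCSp mice, against 5084 and 4845 CPM in the PSp mice. Fos had 1514 and 1523 CPM in PCSp and 1808 and 2138 CPM in PSp. Stat3 had 252 and 254 CPM in PCSp and 336 and 335 CPM in PSp. Junb, Fos and Stat3 were lower in both PCSp mice (adjusted p = 0.373, 0.600 and 0.450), as were 22.1% of all genes tested. The median of the transcription factors was -0.13, and leaving out 1 mouse took it to -0.039 (PCSp mouse 1), -0.23 (PCSp mouse 2), -0.0071 with 9 of 18 negative (PSp mouse 1) and -0.26 (PSp mouse 2). The immediate early and heat shock median was -0.44 without PSp mouse 2. For hypoxia and glycolysis it was -0.27 with PCSp mouse 2 left out and -0.091 with PSp mouse 1 left out.

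In NF-kB feedback 8 of 15 genes had a positive and 7 a negative log2 fold change, and none was called. Tnfaip3, the A20 deubiquitinase, had 509 and 383 CPM in PCSp and 694 and 615 CPM in PSp. Birc3, an inhibitor of apoptosis, had 300.3 and 281 CPM in PCSp and 387 and 369.9 CPM in PSp, and Nfkbie had 264 and 254 CPM in PCSp and 297 and 351 CPM in PSp. These 3 were lower in both PCSp mice (adjusted p = 0.305, 0.503 and 0.604), as were 22.1% of all genes tested. Of 15 cytokines and chemokines tested, 12 had a positive log2 fold change, against 49.1% of all genes tested, and none was called. The median was 0.096, and it turned to -0.086 without PSp mouse 2, with 7 of 15 positive. Without PSp mouse 1 it was 0.40 with 15 of 15 positive, without PCSp mouse 1 0.20, and without PCSp mouse 2 0.022. Cxcl3, another ligand of Cxcr2, had 54.1 and 778 CPM in the PCSp mice, against 86.9 and 61.1 CPM in the PSp mice (log2 fold change 2.58 ± 0.75 (SE), adjusted p = 0.153). Without PCSp mouse 2 its log2 fold change was -0.47. Ccl6 had 664 and 1609 CPM in the PCSp mice, against 730.3 and 517 CPM in the PSp mice (0.91 ± 0.34, adjusted p = 0.322), with PCSp mouse 2 high. Cxcl1 had 103 and 86.2 CPM in the PCSp mice, against 26.98 and 87.6 CPM in the PSp mice (0.71 ± 0.32, adjusted p = 0.450). Of the secondary granule genes 7 were tested, all 7 with a positive log2 fold change (median 0.56), against 49.1% of all genes tested, and none called. Without PCSp mouse 2 the median was 0.069 with 5 of 7 positive, and without PCSp mouse 1 it was 0.90. The list summed to more in keratin-gated cells than in members, 1375 and 2051 CPM in PCSp and 1630 and 1247 CPM in PSp. With genes high in keratin-gated cells left out, 5 were tested and 5 were positive (median 0.94). The part of free epithelial RNA in the members' values was not tested. Lcn2 gave 0.56 ± 0.24, adjusted p = 0.416 and Mmp8 0.96 ± 0.38, adjusted p = 0.371 (log2 fold change ± SE). Chil3 had 9.84 and 10.4 CPM in PCSp and 4.995 and 0.804 CPM in PSp (1.91 ± 0.66, adjusted p = 0.272). Survival and death genes had 10 of 16 positive, against 49.1% of all genes tested, and none called. Bcl2a1a, an antiapoptotic gene, had 370.0 and 439 CPM in PCSp and 305 and 256 CPM in PSp (0.56 ± 0.19, adjusted p = 0.270). Bcl2a1d had 441 and 449 CPM in PCSp and 326 and 351 CPM in PSp. Fas, a death receptor, had 129.6 and 163 CPM in PCSp and 131 and 103 CPM in PSp. Bcl2a1a and Bcl2a1d are near-identical copies whose reads may be split between them.

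No gene was called in the primary granule, tertiary granule, NADPH oxidase, chemoattractant receptor, cytokine receptor, adhesion, suppressive myeloid, pattern recognition, lipid mediator, S100 and stefin, mitochondrially encoded or cholesterol lists. In the S100 and stefin list, S100a10 had 71.4 and 69.1 CPM in the PCSp mice, against 35.97 and 39.4 CPM in the PSp mice (log2 fold change 0.92 ± 0.21 (SE), adjusted p = 0.0533). Fpr1, the formyl peptide receptor, had 47.6 and 86.2 CPM in PCSp and 42.96 and 48.2 CPM in PSp (0.61 ± 0.28, adjusted p = 0.452). Hcar2 and Cxcr4 gave -0.53 ± 0.26, adjusted p = 0.519 and -0.32 ± 0.20, adjusted p = 0.638 (log2 fold change ± SE). Csf2ra, the receptor chain for granulocyte-macrophage colony-stimulating factor, had 312 and 323 CPM in PCSp and 416 and 361 CPM in PSp. Tnfrsf1b, a TNF receptor, had 363 and 388 CPM in PCSp and 439 and 431 CPM in PSp. Ifnar1, a type I interferon receptor chain, had 135 and 134 CPM in PCSp and 101 and 129 CPM in PSp. Csf2ra and Tnfrsf1b were lower and Ifnar1 higher in both PCSp mice (adjusted p = 0.681, 0.817 and 0.706). Of all genes tested, 22.1% were lower and 17.7% higher in this way. Itgal, the integrin chain of LFA-1, had 253 and 267 CPM in PCSp and 329.7 and 341 CPM in PSp. Cd47 had 296 and 252 CPM in PCSp and 227 and 244 CPM in PSp. Clec4n, a fungal lectin receptor, had 667 and 665 CPM in PCSp and 514 and 491 CPM in PSp. Alox5, which starts leukotriene synthesis, had 68.1 and 59.9 CPM in PCSp and 86.9 and 94.9 CPM in PSp. Itgal and Alox5 were lower and Cd47 and Clec4n higher in both PCSp mice (adjusted p = 0.532, 0.336, 0.697 and 0.403). Of 20 cholesterol biosynthesis genes, 7 had enough UMIs to be tested. Of these, 5 had a positive log2 fold change, against 49.1% of all genes tested. The median of the 7 was 0.086, which turned to -0.051 without PCSp mouse 1 and was 0.013 without PSp mouse 1. The list's summed level was 237 and 199.9 CPM in PCSp and 217 and 235 CPM in PSp, the genotypes overlapping. The mitochondrially encoded sum was 16954 and 11673 CPM in PCSp and 10128 and 21707 CPM in PSp, and PSp mouse 2 and PCSp mouse 1 were the high ones. Of markers of other cells, Apoe had 445 and 300.1 CPM in the PCSp mice, against 186 and 242 CPM in the PSp mice (0.82 ± 0.20, adjusted p = 0.0827). Krt19 had 197 and 187 CPM in PCSp and 112 and 167 CPM in PSp (0.48 ± 0.20, adjusted p = 0.378).

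**Figure D5:**
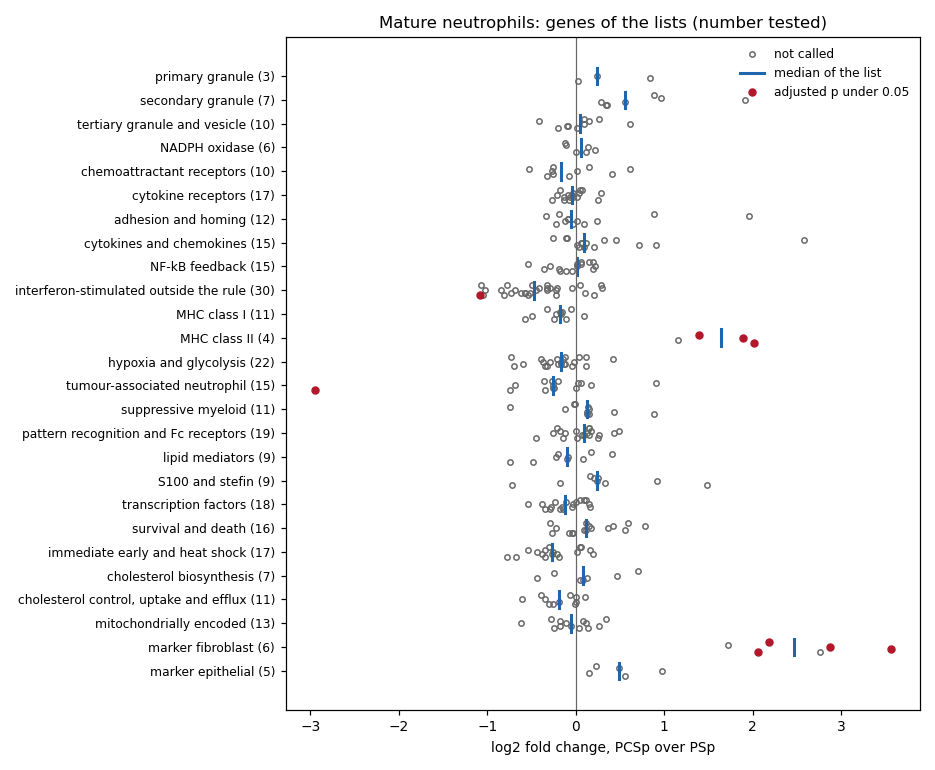
Log2 fold change, PCSp over PSp, in mature members for the tested genes of each list (number tested in brackets); filled points passed an adjusted p of 0.05 and vertical bars are list medians. The interferon-stimulated list centres at -0.47 with 1 called gene, class II at 1.64 with 3, and the fibroblast markers at 2.47 with 4.

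Whether the genotype difference in members differed from that in the other gated neutrophils of the same mice was tested as an interaction, with mouse as a term. Of 8524 genes, 0 passed with edgeR and 0 with DESeq2 (445 and 67 at an unadjusted p under 0.05). Without mixed members 9 of 7859 (0.115%) passed, and without the highest doublet scores 1 of 7983 (0.0125%), all with a positive difference. The 5 genes of smallest p were Cxcl12, Cxcl14, Pi16, Fabp5 and Sfrp1, and Cxcl12, Cxcl14, Pi16 and Sfrp1 are known mainly from fibroblasts. Cxcl12, the ligand of Cxcr4, had 28.7 and 33.00 CPM in PCSp and 1.998 and 2.41 CPM in PSp in members. In marker-low cells it had 82.5 and 138 CPM in PCSp and 82.2 and 119.8 CPM in PSp (log2 difference of fold changes ± SE 3.26 ± 0.49, adjusted p = 0.0510). Cxcl14 gave 2.40 ± 0.39, adjusted p = 0.0629, Pi16 -1.56 ± 0.27, adjusted p = 0.0915, and Sfrp1 2.19 ± 0.46, adjusted p = 0.265. Fabp5, a fatty acid carrier, had 194 and 171 CPM in the PCSp mice, against 103 and 98.9 CPM in the PSp mice in members (0.88 ± 0.18, adjusted p = 0.0332 for the genotype). That call was lost with DESeq2 (adjusted p = 0.166), at least 3 marker UMIs (0.130), equal cells per mouse (0.122), without PSp mouse 1 (0.0716) and without PSp mouse 2 (0.185), in a range of 0.00384 to 0.185. In marker-low cells it had 394 and 485 CPM in PCSp and 693 and 549.7 CPM in PSp, where the PCSp mice were the lower ones (1.11 ± 0.21, adjusted p = 0.140 for the difference). Fabp5 passed the interaction test without mixed members (adjusted p = 0.0112) and without the highest doublet scores (adjusted p = 0.00177), in a range of 0.000707 to 0.809 over its alternatives. The differences of Prok2 (-1.87 ± 0.70, adjusted p = 0.843), Itpr2 (-0.16 ± 0.25, adjusted p = 0.989) and Gm26740 (1.91 ± 1.01, adjusted p = 0.974) did not pass.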

How the data were processed

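Whole prostate tumours of 4 mice were profiled, 1 library each. The values are deposited UMI counts for each gene in each barcode, made by the authors with Cell Ranger 6.1.2 on mm10, per the submitters' processing notes; the filters and whether counting used strand are not given in the sources used here. Members and gene lists were chosen with earlier results of these data known. Counts were summed over members per mouse, and the mouse was the replicate; the labels do not say whether mice shared a litter or a day. edgeR 4.0.16 (TMM, filterByExpr, quasi-likelihood test, Benjamini-Hochberg adjustment) compared PCSp with PSp, and tested the interaction with all other gated neutrophils with mouse as a term. Each SE was calculated back from the edgeR test, as the absolute log2 fold change over the square root of its F statistic. CPM scale the summed UMIs of each mouse to the same total, and a pseudocount of 1 CPM was used in ratios between kinds.

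Genes named for the genotype were called genes averaging 20 CPM or more whose genotypes did not overlap, the 10 with the highest log2 fold change and the 10 with the lowest, the 3 of smallest p in each list (a part of these is printed), and Chd1 and Spop; some genes that these rules take are not reported here. Genes given only as levels were chosen for their role, some after their values were seen. For the kinds, the 15 genes highest and lowest by the least extreme mouse were taken, and for the interaction the 5 of smallest p. Alternatives were DESeq2 1.42.0, RLE scaling, other filters on low counts, other marker limits, cells thinned to 500 UMIs, an equal draw of 361 members per mouse, genes high in keratin-gated cells left out, and each mouse left out. Leaving out mixed members was added after seeing the data. The automatic threshold of Scrublet (scanpy 1.11.5) marked 2 barcodes of 1 library and none in the others, which is too few to have worked, so no doublets were removed, and as an alternative the highest-scoring 0.8% per 1000 barcodes were left out. In data simulated for the genotype comparison on 6668 genes, the test found 6 of 67 genes changed by 0.5 (log2), 35 of 67 changed by 1 and 66 of 66 changed by 2, with 7 false calls among 114. Every simulated gene had the same spread between mice (coefficient of variation 15.3%), and only genes of 20 CPM or more were changed. Genes carried by few members or by 1 mouse are not covered by these counts. Columns of per-sample values not used numbered 0.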

Additional observations from a re-analysis of the deposited data

How the results depend on the processing

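The share of mature neutrophils among filtered cells gave log2 ratios of PCSp over PSp of -0.32 to 0.62 with 1 mouse left out. Among gated neutrophils the ratio was -0.0069 with at least 3 UMIs of the marker genes, 0.19 with at least 1 UMI, 0.25 in cells thinned to 500 UMIs and -0.0049 to 0.16 with 1 mouse left out.

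Against 71 called genes (57 higher and 14 lower in PCSp), DESeq2 called 35 (28 and 7), no filter on low counts 281 (215 and 66), at least 3 marker UMIs 19 (17 and 2), the highest doublet scores left out 27 (16 and 11), the same number of cells per mouse 10 (7 and 3), genes high in keratin-gated cells left out 42 (33 and 9) and mixed members left out 41 (29 and 12). With 1 mouse left out the counts were 142 to 203 (112 to 149 higher and 30 to 58 lower). RLE scaling gave 64 and a minimum of 10 CPM gave 57. The interaction test, with 0 calls, gave 2 with RLE scaling, 35 with no filter, 1 without the highest doublet scores, 1 with equal cells, 9 without mixed members and 11 to 51 with 1 mouse left out. The cause of these differences was not tested.

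Of 27 genes named for the genotype and called, 3 (Gm26740, Gm42031 and Sparc) were called in every alternative with all mice that could test them. Gm42031 was itself among the genes high in keratin-gated cells, so the alternative without those genes could not test it. Mixed members held 39.0% of the PCSp UMIs of Sparc. Signs turned for a pair of genes: Ighm was at -0.10 without the highest doublet scores, -0.065 without mixed members and -0.53 to 6.11 with 1 mouse left out (lowest without PCSp mouse 1), and Cxcl3 at -0.47 to 3.48 with 1 mouse left out (lowest without PCSp mouse 2).

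No paired analysis was possible because the replicate numbers were given in accession order and mark no shared litter, batch or day. With 2 mice per genotype, changes of 0.5 on the log2 scale were mostly missed in simulated data, so genes that were not called are not shown to be alike.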
